A study of Mus musculus with 8 samples.

Results

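Triglyceride synthesis and the supply of its glycerol backbone were followed here through 10 genes, taken by symbol from the deposited gene tables of mouse inguinal white adipose tissue (iWAT): Gpam, Agpat2, Lpin1, Dgat1, Dgat2, Mogat1, Mogat2, Gk, Pck1 and Aqp7. They are 10 of the 17264 genes listed in any library. All 10 were measured in both assays, RNA-seq (transcript levels) and Ribo-seq (fragments of mRNA protected by ribosomes).

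Fat cells build triglyceride by joining fatty acids to glycerol 3-phosphate in steps. Gpam adds the first acyl chain at mitochondria, Agpat2 the second, Lpin1 removes the phosphate to leave diacylglycerol, and either Dgat1 or Dgat2 adds the last chain. Mogat1 and Mogat2 make diacylglycerol by a shorter route, from monoacylglycerol, which is best known in the intestine. Glycerol 3-phosphate comes from glucose, from small precursors through phosphoenolpyruvate carboxykinase (Pck1, the route called glyceroneogenesis), or from free glycerol through glycerol kinase (Gk), an enzyme known to be scarce in white and more abundant in thermogenic fat cells. Aqp7 is the membrane channel through which glycerol passes in adipocytes. In the cold, fat cells break triglyceride down and remake it at the same time.

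The mice were C57BL/6, 9 weeks old by the labels and male by the study's methods, and were kept one to a cage at 4 °C for 7 days. Both groups carried the floxed Ythdf1 allele, with exon 4 between loxP sites: Ythdf1 flox/flox mice are called Y1CTL, and Ythdf1 flox/flox mice with Adipoq-Cre are called Y1cKO. YTHDF1 is a protein that binds N6-methyladenosine in mRNA and is known to promote translation, so the question was which transcripts differ in level or in ribosome occupancy when adipocytes lack it. Adipoq-Cre acts in adipocytes, whereas whole iWAT was lysed, so other cells of the fat pad kept the gene. There were 2 libraries per genotype and assay, 8 in all. The labels do not say whether the 2 replicates are separate animals, so the p-values reflect only how these libraries vary, and that variation may be technical.

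RNA-seq libraries held 3958284 and 4963613 reads in Y1CTL and 12211351 and 16429015 reads in Y1cKO, and Ribo-seq libraries held 7364523 to 11862838 reads. Levels are given as RPKM (reads per kilobase, scaled to the total reads of the library). Markers of white adipocytes were at high levels in every library; Plin1, for example, lay between 360 and 1238 RPKM. Ythdf1 itself had 8.01 and 11.5 RPKM in Y1CTL and 7.17 and 7.98 RPKM in Y1cKO by RNA-seq, a difference that did not pass the test (adjusted p = 0.587 from limma). By Ribo-seq Ythdf1 had 17.3 and 16.0 RPKM in Y1CTL and 12.7 and 15.7 RPKM in Y1cKO. RNA-seq libraries stood apart in 2 ways. Y1CTL replicate 2 held lymphoid transcripts, with 0 of 10 T cell markers at 0 and a median of 11.1 RPKM, whereas no other RNA-seq library had a median above 0.221 RPKM. Y1cKO replicate 1 held skeletal muscle transcripts, with a median of 15.9 RPKM over 14 markers against at most 0.0268 RPKM in the others. All 4 Ribo-seq libraries held T cell markers, with medians of 21.5 to 34.0 RPKM. The part that these transcripts play in the results was not tested. In whole tissue, fewer cells of a type and less RNA per cell cannot be told apart.

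By RNA-seq the members spanned a wide range, from Agpat2 and Dgat2 among the most abundant transcripts of the tissue to Mogat2 near the limit of counting. In Y1CTL, mean levels ran in the order Agpat2 (1070 RPKM), Dgat2 (448), Pck1 (310), Lpin1 (143), Gpam (85.8), Aqp7 (75.9), Dgat1 (49.0), Gk (17.0), Mogat1 (5.94) and Mogat2 (0.269). Only Gpam and Aqp7 overlapped as neighbours in that order. In Y1cKO the order was Agpat2, Dgat2, Pck1, Lpin1, Dgat1, Gpam, Aqp7, Mogat1, Gk and Mogat2, and the neighbours Dgat2 and Pck1, Dgat1 and Gpam, Gpam and Aqp7, and Mogat1 and Gk overlapped. By Ribo-seq, Dgat2, Agpat2 and Pck1 formed the top group in each genotype, with means of 921 to 1266 RPKM and overlapping ranges of neighbours. In Y1CTL the ranges of Dgat2 (1129 to 1403 RPKM) and Pck1 (858 to 984 RPKM) lay apart. Dgat1 came next in both genotypes by Ribo-seq. The plot of levels by library shows both assays. Together the 10 genes took 0.479% to 0.612% of the reads of a library, with Wilson 95% intervals that together span 0.473% to 0.616%. Intervals here cover counting error only.

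**Figure D1:**
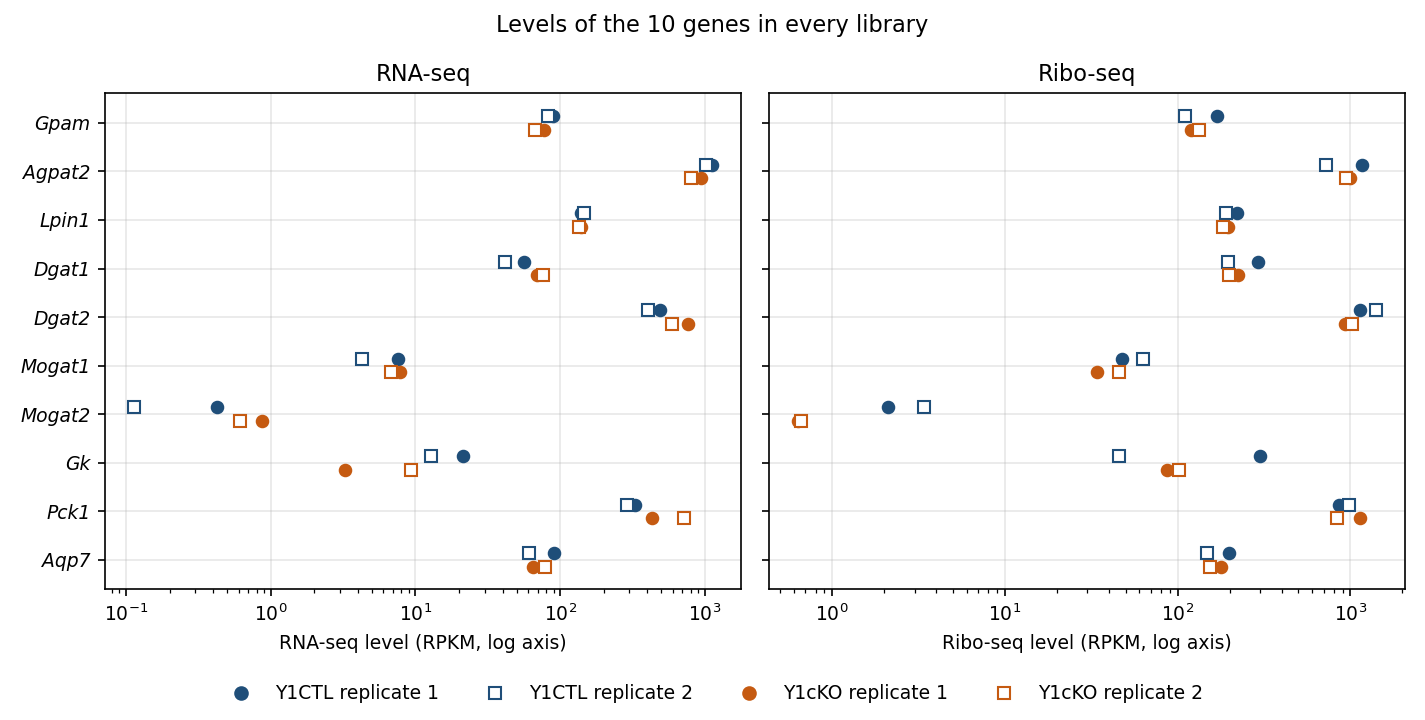
Level of each member in every library, in RPKM on a log axis, by RNA-seq (left) and Ribo-seq (right). Blue marks are Y1CTL and orange marks Y1cKO, filled circles replicate 1 and open squares replicate 2; Agpat2, Dgat2 and Pck1 lie highest, Mogat2 lowest, and Gk spreads most between the Y1CTL Ribo-seq libraries (45.4 and 300.6 RPKM).

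On the route from glycerol 3-phosphate to diacylglycerol, Gpam, Agpat2 and Lpin1 each had lower transcript levels in both Y1cKO libraries, while their ribosome footprints overlapped between genotypes. The size of the transcript difference depended on the scale. With libraries scaled to the white adipocyte markers, the RNA-seq log2 differences were -0.88 for Gpam, -0.93 for Agpat2 and -0.69 for Lpin1 (adjusted p = 0.622 for each, limma), each farther from 0 than the values as deposited that follow. Gpam (ENSMUSG00000024978), the mitochondrial glycerol 3-phosphate acyltransferase, had 89.8 and 81.8 RPKM in Y1CTL and 77.8 and 66.6 RPKM in Y1cKO in RNA-seq. Its Ribo-seq levels were 168 and 110 RPKM in Y1CTL and 120 and 133 RPKM in Y1cKO. Both Y1cKO values lay inside the Y1CTL range in Ribo-seq. The log2 differences of Gpam (Y1cKO minus Y1CTL) were -0.25 with a standard error of 0.19 in RNA-seq and -0.11 ± 0.22 (standard error) in Ribo-seq, with adjusted p of 0.594 and 1.00 from limma.

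Agpat2 (ENSMUSG00000026922), which attaches the second acyl chain and whose loss is a known cause of generalized lipodystrophy, was the most abundant member by RNA-seq. It had 1123 and 1017 RPKM in Y1CTL and 947 and 799 RPKM in Y1cKO, so that all 4 libraries separated by genotype. Its Ribo-seq levels were 1171 and 722 RPKM in Y1CTL, on either side of the 992 and 937 RPKM in Y1cKO. Its log2 differences were -0.30 ± 0.30 (standard error) in RNA-seq and 0.07 ± 0.26 in Ribo-seq, and neither passed the test (adjusted p = 0.693 and 1.00, limma). The ratio of Agpat2 to Gpam on the RPKM scale was steady in RNA-seq, at 12.5 and 12.4 in Y1CTL and 12.2 and 12.0 in Y1cKO, and lay between 6.54 and 8.28 in Ribo-seq.

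Lpin1 (ENSMUSG00000020593), the phosphatidate phosphatase lipin 1, was the steadiest member. It had 140.2 and 145 RPKM in Y1CTL and 139 and 135 RPKM in Y1cKO by RNA-seq, and 220.2 and 191 against 196 and 182 RPKM by Ribo-seq. Its log2 differences were -0.06 ± 0.19 and -0.12 ± 0.15 (standard error) in RNA-seq and Ribo-seq (adjusted p = 0.912 and 1.00, limma).

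The last step gave transcript levels that were higher in both Y1cKO libraries for both enzymes, as they were for 36.9% of all genes. Neither enzyme had a higher footprint level. Dgat1 (ENSMUSG00000022555), the acyltransferase linked to fatty acids taken up or set free by lipolysis, had 56.2 and 41.8 RPKM in Y1CTL and 69.3 and 75.8 RPKM in Y1cKO in RNA-seq. Its Ribo-seq levels were 290.4 and 194 RPKM in Y1CTL and 224 and 198 RPKM in Y1cKO. The genotypes did not overlap in RNA-seq and did in Ribo-seq. Its log2 difference was 0.57 ± 0.21 (standard error) in RNA-seq and -0.17 ± 0.22 in Ribo-seq, with adjusted p of 0.409 and 1.00 from limma. With libraries scaled to the white adipocyte markers, the RNA-seq difference of Dgat1 was -0.06, on the other side of 0.

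Dgat2 (ENSMUSG00000030747), the enzyme linked to newly made fatty acids and the more abundant of the pair, separated by genotype in both assays but in opposite directions. By RNA-seq it had 493 and 402 RPKM in Y1CTL and 763 and 595 RPKM in Y1cKO. Its Ribo-seq levels were 1129 and 1403 RPKM in Y1CTL and 932 and 1022 RPKM in Y1cKO. So both Y1cKO libraries had more transcript and fewer footprints than either Y1CTL library. The log2 difference was 0.60 ± 0.28 (standard error) in RNA-seq and -0.37 ± 0.20 in Ribo-seq, and neither passed the test (adjusted p = 0.464 and 1.00, limma). Scaled to the white adipocyte markers the RNA-seq difference of Dgat2 was -0.04 and thus changed sign, and the Ribo-seq difference was -0.23. On the RPKM scale, Dgat2 exceeded Dgat1 by 7.84 to 11.02 times in RNA-seq and by 3.89 to 7.21 times in Ribo-seq, and the genotypes overlapped in each.

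Both monoacylglycerol acyltransferases had lower footprint levels in Y1cKO. Mogat1 (ENSMUSG00000012187) had 7.61 and 4.27 RPKM in Y1CTL and 7.87 and 6.74 RPKM in Y1cKO by RNA-seq, from 37, 26, 118 and 136 reads. Its Ribo-seq levels were 47.8 and 63.0 RPKM in Y1CTL and 34.2 and 45.6 RPKM in Y1cKO, from 570, 466, 327 and 414 reads. The Ribo-seq values separated by genotype, though the nearest libraries, at 47.8 and 45.6 RPKM, had overlapping exact Poisson 95% intervals (44.0 to 51.9 and 41.3 to 50.2 RPKM). The log2 difference in Ribo-seq was -0.47 ± 0.20 (standard error; adjusted p = 1.00, limma), and in RNA-seq it was 0.32 ± 0.31 as deposited and -0.26 when scaled to the white adipocyte markers.

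Mogat2 (ENSMUSG00000052396) had the largest footprint difference of the 10 genes, on few reads. Its recovered Ribo-seq reads were 25 and 25 in Y1CTL and 6 and 6 in Y1cKO, which is 2.10 and 3.39 RPKM against 0.63 and 0.663 RPKM. By RNA-seq it had only 3 and 1 reads in Y1CTL and 19 and 18 reads in Y1cKO, or 0.426 and 0.113 against 0.874 and 0.616 RPKM. The genotypes thus separated in both assays, in opposite directions, as for Dgat2. With the reads of each genotype summed, the rate of Mogat2 reads in Y1cKO was 0.249 times that in Y1CTL in Ribo-seq (exact 95% interval 0.121 to 0.474) and 2.88 times in RNA-seq (1.04 to 11.1), intervals that leave out the spread between libraries. On the log2(RPKM + 0.5) scale, which understates differences of low genes, the difference was -1.47 ± 0.29 (standard error) in Ribo-seq and 0.72 ± 0.54 in RNA-seq, and neither passed the test (adjusted p = 1.00 and 0.596, limma). Mogat2 passed the RNA-seq filter of a mean of 0.5 RPKM only through the Y1cKO libraries, since its Y1CTL mean was 0.269 RPKM. Of the enterocyte markers, 4 of 5 were found, and their summed level was at most 0.835 RPKM in every library; Vil1, the brush border protein villin, had at most 0.219 RPKM.

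The glycerol suppliers went in different directions at the transcript level: Pck1 was higher and Gk lower in both Y1cKO libraries, and Aqp7 overlapped. Of all genes, 36.9% were higher and 10.7% lower in both Y1cKO libraries by RNA-seq. The 250 bases before the transcription start of Pck1 and Gk are shown because these genes differed in opposite directions in RNA-seq; they were taken from RefSeq (GRCm38.p6, a later build than the mm8 the reads were mapped to), at chr2:173152823-173153072 on the + strand and chrX:85776820-85777069 on the - strand. Capitals mark the core of the cAMP response element (ACGTCA) and an E-box (CACGTG), searched on both strands.
Pck1: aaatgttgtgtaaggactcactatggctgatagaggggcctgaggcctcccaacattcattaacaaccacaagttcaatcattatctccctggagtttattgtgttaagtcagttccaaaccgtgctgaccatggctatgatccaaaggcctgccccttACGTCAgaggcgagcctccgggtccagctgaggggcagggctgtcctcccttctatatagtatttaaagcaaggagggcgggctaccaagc
Gk: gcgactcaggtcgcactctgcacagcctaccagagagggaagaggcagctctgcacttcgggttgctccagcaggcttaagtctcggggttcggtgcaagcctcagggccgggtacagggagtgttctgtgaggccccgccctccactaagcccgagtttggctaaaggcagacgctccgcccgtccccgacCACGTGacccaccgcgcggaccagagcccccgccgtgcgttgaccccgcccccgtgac
In 300-base windows that also hold the first 50 transcribed bases, ACGTCA was present in 6.47% and CACGTG in 6.02% of 32851 mouse promoters, and the nuclear receptor half-site AGGTCA in 14.02%. Windows were found for 7 of the 10 members, 9 windows in all. ACGTCA occurred in the Pck1 window and in 1 of the Gpam windows, CACGTG in the Gk window, and AGGTCA in the windows of Aqp7 and Lpin1 and in 1 of Gpam. These are matches of letters, and no binding was measured.

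Pck1 (ENSMUSG00000027513), the cytosolic carboxykinase of glyceroneogenesis, had 329 and 291 RPKM in Y1CTL and 432 and 722 RPKM in Y1cKO in RNA-seq. Its Ribo-seq levels were 858 and 984 RPKM in Y1CTL and 1141 and 832 RPKM in Y1cKO. Both Y1cKO libraries held more Pck1 transcript than either Y1CTL library, but the footprints of the Y1CTL libraries lay between those of the Y1cKO libraries. The log2 difference was 0.85 ± 0.32 (standard error) in RNA-seq and 0.08 ± 0.22 in Ribo-seq, with adjusted p of 0.413 and 1.00 from limma. The RNA-seq difference was 0.21 with libraries scaled to the white adipocyte markers, and between 0.48 and 1.22 with 1 library left out.

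Gk (ENSMUSG00000025059) was the most variable member. By RNA-seq it had 21.2 and 12.8 RPKM in Y1CTL and 3.25 and 9.32 RPKM in Y1cKO, and by Ribo-seq 300.6 and 45.4 RPKM in Y1CTL and 86.8 and 102 RPKM in Y1cKO. The Y1CTL Ribo-seq libraries were the highest and the lowest of the assay. Its log2 difference was -1.48 ± 0.49 (standard error) in RNA-seq, the largest of the members in that assay, and -0.31 ± 0.77 in Ribo-seq (adjusted p = 0.402 and 1.00, limma). The RNA-seq difference was -0.79 without Y1cKO replicate 1, the library with muscle transcripts, and -1.84 without Y1CTL replicate 2, the library with lymphoid transcripts, and -2.07 with libraries scaled to the white adipocyte markers. In Ribo-seq, 1 Y1CTL library decided the sign. Without Y1CTL replicate 1 the log2 difference of Gk was 1.04, and without Y1CTL replicate 2 it was -1.67. Each of these fits leaves 1 Y1CTL library, which is assumed to vary like the Y1cKO libraries.

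Markers of beige and brown adipocytes followed Gk in part. The geometric mean of 14 such markers was 53.0 and 80.4 RPKM in Y1CTL and 14.4 and 45.4 RPKM in Y1cKO by RNA-seq, and 250.5 and 84.7 against 191 and 154 RPKM by Ribo-seq. Ucp1, the uncoupling protein of thermogenic fat cells, had 609 and 1441 against 48.1 and 544 RPKM by RNA-seq, and 3586 and 955 against 3164 and 2481 RPKM by Ribo-seq. In each assay the library with the lowest marker level also had the lowest Gk level. In Ribo-seq the Y1CTL library highest in the markers was also the highest in Gk, whereas in RNA-seq Y1CTL replicate 1 had more Gk and a lower marker level than Y1CTL replicate 2. The order also broke between the Y1cKO Ribo-seq libraries, where replicate 1 had the higher marker level (191 against 154 RPKM) and the lower Gk level (86.8 against 102 RPKM). The part of the marker level in the Gk difference was not tested. None of the 14 markers was at 0 in any library.

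**Figure D2:**
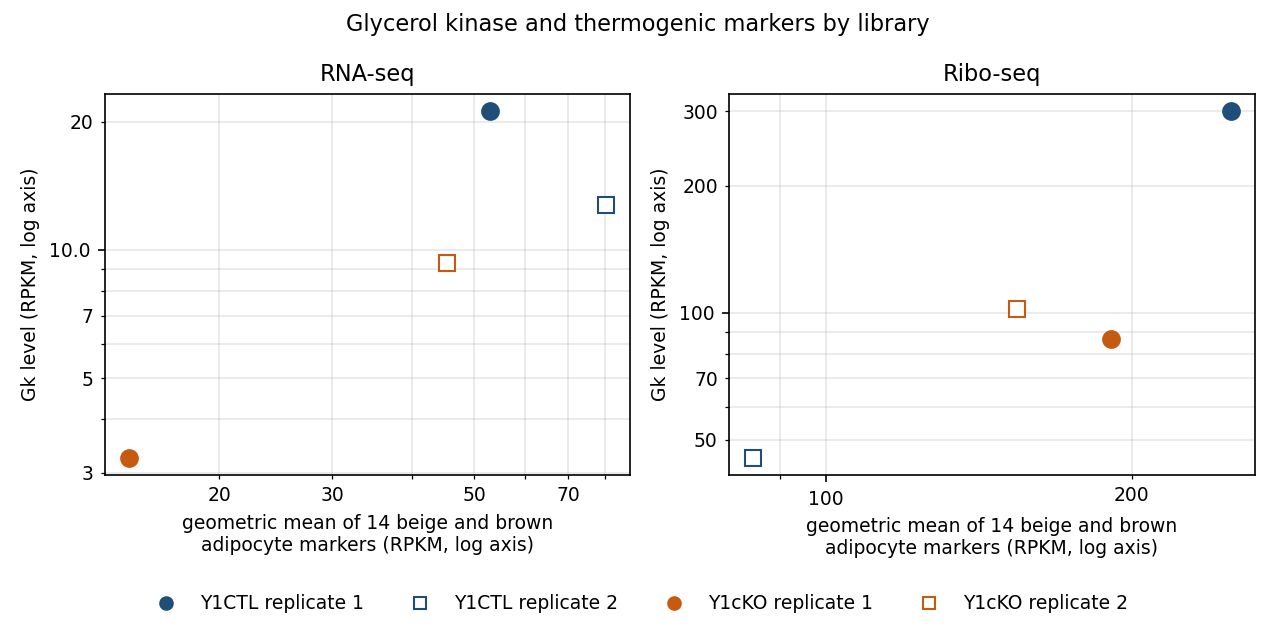
Level of Gk against the geometric mean of 14 beige and brown adipocyte markers in each library, both in RPKM on log axes, by RNA-seq (left) and Ribo-seq (right). Each mark is 1 library; the lowest Gk level lies at the lowest marker level in each assay, in Y1cKO replicate 1 by RNA-seq (3.25 RPKM) and in Y1CTL replicate 2 by Ribo-seq (45.4 RPKM).

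Aqp7 (ENSMUSG00000028427), the adipocyte glycerol channel, overlapped between genotypes in both assays. It had 91.0 and 60.8 RPKM in Y1CTL and 64.7 and 78.6 RPKM in Y1cKO by RNA-seq, and 199 and 148 against 177 and 155 RPKM by Ribo-seq. The log2 differences were -0.06 ± 0.25 and -0.05 ± 0.19 (standard error; adjusted p = 0.937 and 1.00, limma), and the RNA-seq difference was -0.69 with libraries scaled to the white adipocyte markers. Hepatocyte markers, checked because liver is another known site of Pck1 and Gk, were found for 4 of 5 genes. Their summed level was 14.5 to 51.8 RPKM and was mostly albumin (12.6 to 47.3 RPKM).

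None of the 10 members passed an adjusted p of 0.05 in Ribo-seq, RNA-seq or the ratio of the assays, where the calls over all genes were 0% in each (0 of 12602, 0 of 12435 and 0 of 11792 genes, limma; voom also gave 0). At an unadjusted p under 0.05, limma called 1 of 10 members in Ribo-seq (Mogat2), beside 2.75% of all genes, and 3 of 10 in RNA-seq (Dgat1 and Pck1 higher, Gk lower), beside 11.8% of all genes. Without the RNA-seq library that held lymphoid transcripts 1 of 10 members was called at that level (Gk, beside 19.4% of all genes), and without the one that held muscle transcripts 1 of 9 (Pck1, beside 2.201%). In Ribo-seq the Y1cKO libraries were both below the lower Y1CTL library for 3 of 10 members, Dgat2, Mogat1 and Mogat2, and for 14.1% of all genes. They were both above the higher Y1CTL library for 0 of 10 members and for 15.4% of all genes. In RNA-seq 4 of 10 members lay below without overlap (Gpam, Agpat2, Lpin1 and Gk), against 10.7% of all genes. For Gpam and Lpin1 the nearest libraries had overlapping Poisson intervals. Above lay 4 of 10 (Dgat1, Dgat2, Mogat2 and Pck1), against 36.9%, with Mogat2 past the filter only through its Y1cKO libraries. An exact permutation test of 2 libraries against 2 cannot give a two-sided p under 0.333, so none was run on single genes.

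**Figure D3:**
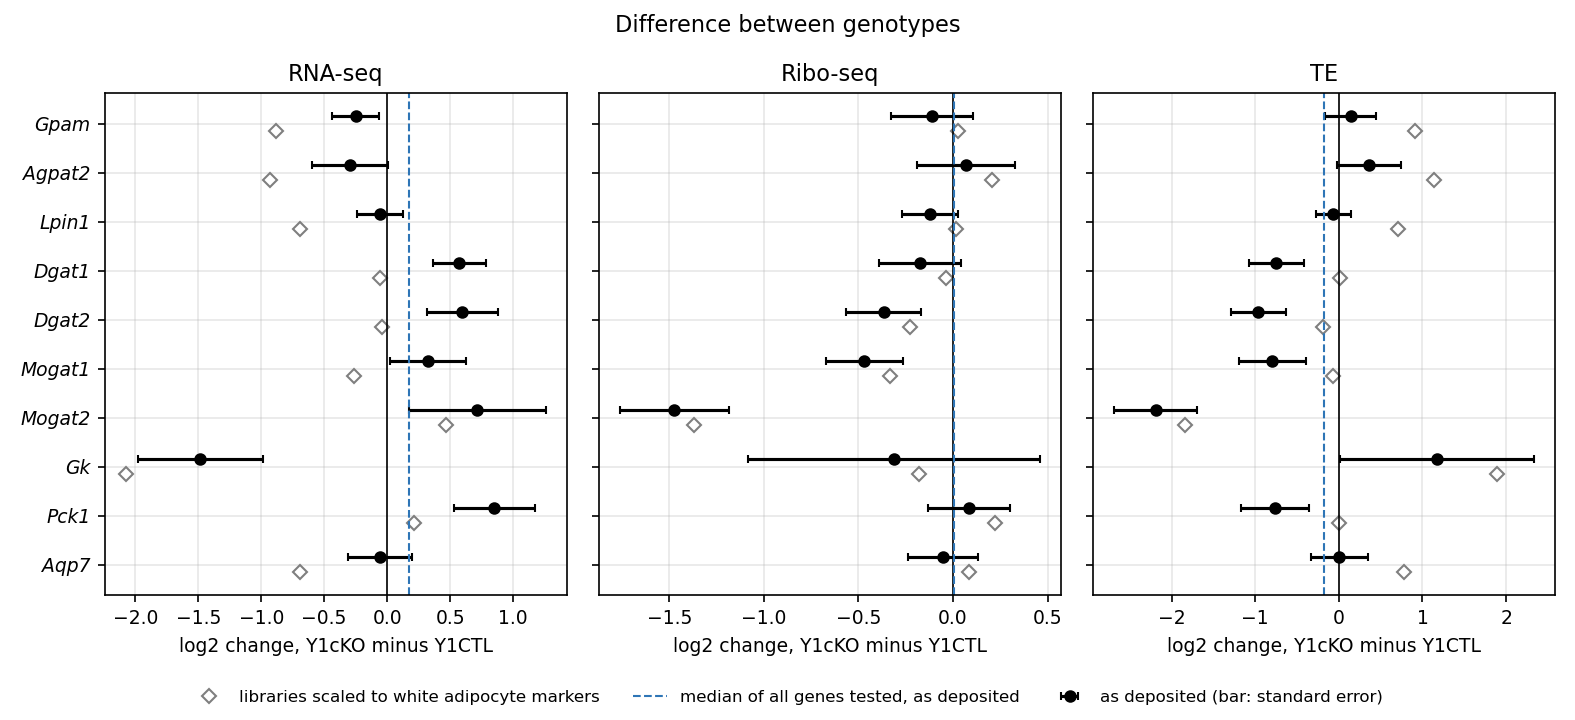
Log2 difference of each member between genotypes (Y1cKO minus Y1CTL, on the log2(RPKM + 0.5) scale) in RNA-seq, Ribo-seq and their ratio (TE). Black circles with standard errors are values as deposited, open diamonds the same with libraries scaled to the white adipocyte markers, and the dashed line is the median of all genes; Mogat2 lies lowest in Ribo-seq (-1.47) and TE (-2.19), and Gk lowest in RNA-seq (-1.48).

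The scale of the libraries matters to these directions. The median log2 difference of the members was -0.15 in Ribo-seq and 0.13 in RNA-seq, where the median of all genes was 0.01 and 0.17. All 12 white adipocyte markers lay above 0 in RNA-seq, with a median of 0.57, and 10 of 12 lay below 0 in Ribo-seq, with a median of -0.06. With libraries scaled to the same median, the members' medians were -0.15 in Ribo-seq and -0.02 in RNA-seq. With libraries scaled to the white adipocyte markers they were -0.01 and -0.48, beside 0.13 and -0.41 for all genes. Members below 0 numbered 8 of 10 in Ribo-seq and 5 of 10 in RNA-seq as deposited, and 5 of 10 and 8 of 10 with that scaling.

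Translational efficiency (TE) is given as the log2 ratio of Ribo-seq to RNA-seq, each on the log2(RPKM + 0.5) scale. Footprints are counted over the coding length and transcripts over the whole length, so that a TE level depends on gene structure and is best read as a rank among genes. In Y1CTL, members lay across the whole range of TE levels, from Agpat2 at -0.22 (percentile 17.5 of 11792 genes) to Mogat1 at 3.15 (percentile 94.1), beside a median of 1.02 over all genes. Gk followed at 2.79 (percentile 90.5), Dgat1 at 2.28 (percentile 83.0) and Mogat2 at 2.08 (percentile 79.2). In Y1cKO, Gk lay at 3.96 (percentile 97.5), Dgat2 at 0.53 (percentile 41.1, from percentile 64.0 in Y1CTL) and Mogat2 at -0.11 (percentile 23.8). For 3 of 10 members, Dgat1, Dgat2 and Mogat2, the 4 pairings of a Ribo-seq with an RNA-seq library in Y1cKO all lay below the 4 pairings in Y1CTL, as they did for 20.8% of all genes.

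**Figure D4:**
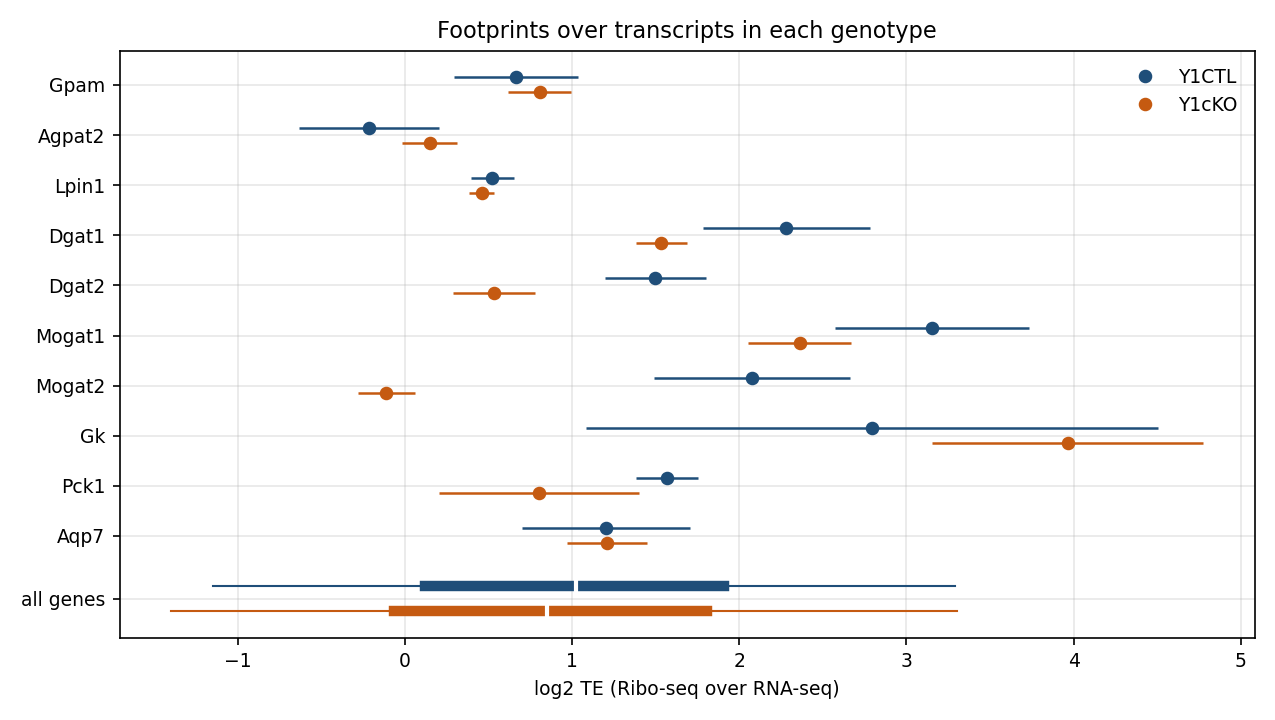
Log2 TE level (Ribo-seq over RNA-seq) of each member in Y1CTL (blue) and Y1cKO (orange). Points are means and lines span the 4 pairings of a Ribo-seq with an RNA-seq library; the rows of all genes show the median (gap), the middle 50% (thick bar) and the 5th to 95th percentile (thin line) of 11792 genes. Dgat2 and Mogat2 lie to the left in Y1cKO (0.53 and -0.11) of their Y1CTL level (1.498 and 2.08).

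The log2 TE difference between genotypes was below 0 for 6 of 10 members, with a median of -0.41 beside -0.17 for all genes. The monoacylglycerol and diacylglycerol acyltransferases and Pck1 had the low values: Mogat2 -2.19 ± 0.50 (standard error), Dgat2 -0.96 ± 0.33, Mogat1 -0.79 ± 0.40, Pck1 -0.77 ± 0.41 and Dgat1 -0.75 ± 0.33. The glycerol 3-phosphate branch lay near or above 0, with Gpam at 0.14, Agpat2 at 0.36 and Lpin1 at -0.06, and Aqp7 lay at 0.01. Gk had the highest value and the widest error, 1.17 ± 1.16. At an unadjusted p under 0.05 limma called 2 of 10 members, Dgat2 and Mogat2, beside 8.66% of all genes, and the adjusted p was 0.563 for both. Mogat2 entered this comparison only through its Y1cKO RNA-seq level and dropped out at a mean of 1 RPKM, which leaves 1 of 9 members, Dgat2.

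Dgat2 and Mogat2 were the 2 of 10 members with more transcript and fewer footprints in both Y1cKO libraries, an arrangement found in 5% of all genes. The reverse held for 0 of 10 members and 1.53% of all genes. Mogat2 passed the RNA-seq filter only through its Y1cKO libraries, so of these 2 only Dgat2 is free of that limit. Scaled to the white adipocyte markers, the TE difference was -1.84 for Mogat2, -0.19 for Dgat2 and -0.07 for Mogat1. Dgat1 (0.02) and Pck1 (0.01) came to the other side of 0, and 3 of 10 members rather than 6 lay below it. That scaling also moved the median of all genes, from -0.17 to 0.54, and the members' median was then 0.36. The white adipocyte markers themselves had a median TE difference of -0.82, with 12 of 12 below 0. Without the RNA-seq library that held lymphoid transcripts, the TE difference was -1.89 for Mogat2 and -0.82 for Dgat2. Without both Y1CTL replicate 1 libraries, the TE difference was -2.78 for Mogat2, -1.37 for Mogat1 and -1.27 for Dgat2. Y1CTL is then 1 library per assay, and in RNA-seq it is the one with lymphoid transcripts.

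The transcripts used for the counts differ in build. Leaders before the coding sequence ran from 49 bases in Lpin1 and 54 in Mogat2 to 443 in Aqp7, against a median of 167 bases over all genes. Trailers after it ran from 76 bases in Mogat1 and 224 in Dgat1 to 3297 in Gpam, against a median of 904. The members with a TE difference below -0.7 had trailers of 76 (Mogat1), 224 (Dgat1), 630 (Pck1), 724 (Mogat2) and 891 bases (Dgat2), all under the median of all genes. The other members had 533 (Agpat2), 1175 (Aqp7), 2452 (Gk), 2462 (Lpin1) and 3297 bases (Gpam). The division at -0.7 was made after the values were seen, on the scale as deposited. With libraries scaled to the white adipocyte markers only Mogat2 (-1.84) lay below -0.7, where the median of all genes was 0.54. The link between trailer length and TE was not tested. The table holds 1 transcript per gene, so isoforms cannot be told apart.

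Other genes of the pathway were described from lists written by function, with earlier results of these data known. None of their genes passed an adjusted p of 0.05 in limma in any comparison. Of 12 genes of the other acylation and phosphatase steps, 11 were tested, and in RNA-seq 10 of 11 lay above 0, with a median log2 difference of 0.19 beside 0.17 for all genes. At an unadjusted p under 0.05, 2 of 11 were higher in RNA-seq, beside 11.8% of all genes in either direction, 1 of 11 was lower in Ribo-seq (beside 2.75%), and 1 of 11, Gpat3, was lower in TE (beside 8.66%). Gpat3, the glycerol 3-phosphate acyltransferase of the endoplasmic reticulum, had 19.2 and 10.01 RPKM in Y1CTL and 25.9 and 31.1 RPKM in Y1cKO by RNA-seq. By Ribo-seq Gpat3 had 52.8 and 79.3 against 65.1 and 49.5 RPKM, which overlapped. Plpp3, a lipid phosphate phosphatase, had 33.3 and 23.2 against 59.5 and 46.0 RPKM by RNA-seq. Plpp1, a related phosphatase, had 30.9 and 28.4 RPKM in Y1CTL and 20.6 and 24.3 RPKM in Y1cKO by Ribo-seq.

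Among 13 other genes of glycerol and glycerol 3-phosphate supply, 12 were tested in Ribo-seq and 11 in RNA-seq, with medians of 0.02 and -0.07. At an unadjusted p under 0.05, 1 of 12 was lower in Ribo-seq, beside 2.75% of all genes in either direction. At that level 1 of 11 was lower in TE (beside 8.66%) and 0 of 11 differed in RNA-seq (beside 11.8%). In Ribo-seq and in TE it was Aqp11, an aquaporin of internal membranes. Its Ribo-seq levels were 8.71 and 7.35 RPKM in Y1CTL and 3.36 and 5.17 RPKM in Y1cKO. Pcx, the pyruvate carboxylase that acts before Pck1, had 469 and 266 RPKM in Y1CTL and 651 and 430 RPKM in Y1cKO by RNA-seq. By Ribo-seq Pcx had 710 and 1039 RPKM in Y1CTL and 566 and 687 RPKM in Y1cKO. Its footprints lay lower in both Y1cKO libraries and its transcripts overlapped. Pck2, the mitochondrial carboxykinase, had 2.08 to 5.13 RPKM by RNA-seq and 10.2 to 11.6 RPKM by Ribo-seq.

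Of 5 acyl-CoA synthetases, which activate fatty acids for esterification, 4 were tested and 0 had an unadjusted p under 0.05 in any comparison. The shares of all genes at that level were 2.75% in Ribo-seq, 11.8% in RNA-seq and 8.66% in TE. Acsl5 put the Ribo-seq libraries in the same order as the thermogenic markers did, with 453 and 98.4 RPKM in Y1CTL and 328 and 289 RPKM in Y1cKO. Acsl4 had 5.41 and 6.33 against 7.48 and 6.39 RPKM by RNA-seq and overlapped in Ribo-seq, and Acsl3 overlapped in both assays. Of the lipid droplet assembly partners, 2 of 3 were tested. At an unadjusted p under 0.05, 1 of these 2, Bscl2, was lower in TE, beside 8.66% of all genes in either direction. Bscl2, which encodes seipin, had 90.0 and 84.0 RPKM in Y1CTL and 148 and 108 RPKM in Y1cKO by RNA-seq, and 164 and 173 against 153 and 167 RPKM by Ribo-seq. Fitm2, which takes part in droplet budding, had 36.6 to 52.8 RPKM by RNA-seq.

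All 6 transcription factors of the pathway were tested, and 5 of 6 lay above 0 in RNA-seq, with a median of 0.30. At an unadjusted p under 0.05, 1 of 6, Cebpa, was higher in RNA-seq and lower in TE, beside 11.8% and 8.66% of all genes in either direction. Cebpa, a regulator of adipocyte genes, had 105 and 84.0 RPKM in Y1CTL and 223 and 218 RPKM in Y1cKO by RNA-seq (log2 difference 1.23 ± 0.21, standard error, adjusted p = 0.401, limma). By Ribo-seq the same gene had 238 and 435 against 316 and 290.4 RPKM. Pparg, the master regulator of fat cells, had 104 and 82.2 against 146 and 117 RPKM by RNA-seq. Srebf1, a regulator of lipid synthesis, had 122 and 106 against 205 and 120 RPKM. As with Dgat1 and Dgat2, the Y1cKO libraries lay above the Y1CTL libraries for Cebpa and Pparg transcripts as deposited, on a scale on which the white adipocyte markers lay above 0 as well, while Srebf1 overlapped.

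The genes whose levels across the 8 libraries were most like the mean of the members, with each assay centred, were Ankrd17 (Pearson's r = 0.95), Atg16l1 (0.95), Noct (0.94), Myl9 (0.94) and Hacd2 (0.94). Those most like Mogat2 were Srsf10 (0.95), Lamtor3 (0.94), Dync1h1 (0.93), Cox14 (0.92) and Aldh3b2 (0.92). They were the 5 closest of the 3948 genes whose mean reached 10 RPKM in each assay. The assays may share tissue, so the 8 libraries cannot be taken as independent, and these values are a description.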

How the data were processed

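RNA-seq (polyadenylated RNA) and Ribo-seq (RNase I footprints) of iWAT gave 8 libraries, 2 per genotype and assay, grouped by the sample labels. The authors trimmed adaptors, aligned to mm8 (HISAT2 2.2.1) and deposited 1 table of RPKM per library, over transcript length for RNA-seq and coding length for Ribo-seq. DESeq2 is also named in the authors' notes, for no stated purpose. The counter, annotation release and strandedness were not given in the sources used here. Every value was a whole multiple of 1 read within 0.01 read (100%), so reads and depth were computed back. Genes absent from a Ribo-seq table were set to 0.

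Genotypes were compared with limma 3.58.1 (R 4.3.3, intensity trend) on log2(RPKM + 0.5), within each assay, over all genes whose mean reached 0.5 RPKM. TE was the assay by genotype interaction over 8 libraries, for genes reaching that mean in both assays. Benjamini-Hochberg adjustment covered all genes tested, with a threshold of 0.05. The tests were checked on simulated data. A log2 change of 1 was called for 26.3% of changed genes in Ribo-seq, 3.06% in RNA-seq and 0% in TE. A log2 change of 2 was called for 94%, 67.7% and 13.4%. A gene that did not pass the test may therefore still differ. Alternatives covered pseudocount, filter, scaling, trend, a common fit, voom on recovered reads, the replicate block and each replicate left out. Marker scaling set each library to the same geometric mean of 12 white adipocyte markers.

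The members, gene lists and rules were chosen with earlier results of these data known. The text names all members, up to 3 genes of each other list with the smallest unadjusted p in any comparison, and the 5 genes most like the members' mean and Mogat2. Promoters came from RefSeq tables. Python 3.11.15, numpy 2.4.6, pandas 2.3.3, scipy 1.17.1 and matplotlib 3.10.9 were used.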

Additional observations from a re-analysis of the deposited data

Results flagged for a closer look

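Dgat2 and Mogat2 had opposite directions in the assays, with both Y1cKO libraries above both Y1CTL libraries in RNA-seq and below them in Ribo-seq. The difference between the assays was tested as an interaction in limma. The log2 TE difference was -0.96 for Dgat2 and -2.19 for Mogat2, with an adjusted p of 0.563 for each, so neither passed the test. Across alternatives, the log2 TE difference was -1.27 to -0.19 for Dgat2 and -3.29 to -1.60 for Mogat2. The Mogat2 values rest on 4 RNA-seq reads in Y1CTL and 12 Ribo-seq reads in Y1cKO, and Mogat2 passed the RNA-seq filter only through its Y1cKO libraries.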

How the results depend on the processing

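Counts of called genes were 0 in each comparison as reported and moved as follows: 9 genes in Ribo-seq with marker scaling, 0 to 51 in Ribo-seq, 0 to 665 in RNA-seq and 0 to 963 for TE with a replicate left out (the highest each without Y1CTL replicate 1). Leaving out a replicate gave a members' median of -0.28 to 0.05 in Ribo-seq, -0.045 to 0.47 in RNA-seq and -0.37 to -0.045 for TE. With marker scaling the median was -0.48 in RNA-seq and 0.36 for TE, beside -0.41 and 0.54 for all genes. It was -0.064 for TE with a mean of at least 1 RPKM, where Mogat2 dropped out. Without Y1cKO replicate 1 of RNA-seq alone, chosen after seeing the data, it was -0.13, the value of Aqp7. Mogat2 also dropped out of RNA-seq and TE without either Y1cKO replicate. With marker scaling these log2 differences came to the other side of 0: in Ribo-seq Gpam 0.026, Lpin1 0.015 and Aqp7 0.084, in RNA-seq Dgat1 -0.056, Dgat2 -0.039 and Mogat1 -0.26, and in TE Lpin1 0.71, Dgat1 0.019 and Pck1 0.0073. With the same median, Lpin1 TE was 0.089. With replicates left out, signs turned for Gpam (-0.41 to 0.19), Agpat2 (-0.28 to 0.42), Dgat1 (-0.46 to 0.12), Gk (-1.67 to 1.04), Pck1 (-0.14 to 0.31) and Aqp7 (-0.27 to 0.16) in Ribo-seq, Mogat1 (-0.059 to 0.71) and Aqp7 (-0.35 to 0.23) in RNA-seq, and Gpam (-0.093 to 0.38), Lpin1 (-0.19 to 0.062) and Aqp7 (-0.23 to 0.25) in TE. The cause was not tested. The planned count tests other than voom were not run, because the deposited values are RPKM.

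By the numbers of the labels, same-numbered libraries did not deviate together. Between assays their deviations correlated, over genes, at -0.14 for Y1CTL and -0.24 for Y1cKO, and between genotypes at -0.02 for RNA-seq and 0.03 for Ribo-seq. For Y1cKO RNA-seq the column names swap the replicate numbers of the labels, and the labels were followed. With the numbers of the column names, the Y1cKO correlation between assays keeps its size and turns positive. With the replicate block 0 genes were called in each comparison (381, 1660 and 595 genes at an unadjusted p under 0.05 in Ribo-seq, RNA-seq and TE), and with the numbers of the column names, added after seeing the data, 0 in TE (811 genes). The block changed no call of a member at an adjusted p of 0.05. At an unadjusted p under 0.05 it added Mogat1 in Ribo-seq, Dgat2 in RNA-seq and Dgat1 in TE, and lost Dgat2 in TE.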
